A study of Homo sapiens with 6 samples.

Results

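SR and hnRNP proteins are the RNA-binding regulators that decide which exons enter an mRNA. SR proteins carry RNA recognition motifs and a tail rich in arginine and serine, bind exonic enhancers and mostly favour exon inclusion, while many hnRNP proteins bind silencers and package nascent transcripts. Most SR genes also hold a poison exon, which sends their own transcripts to nonsense-mediated decay when the protein is abundant. Several of these genes, among them SRSF1, PTBP1, HNRNPA1 and HNRNPA2B1, are known targets of the transcription factor MYC.

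The genes described here are all protein-coding genes with a symbol of SRSF and a number or a symbol starting with HNRNP, plus TRA2A, TRA2B, PTBP1 and PTBP2. The rule gave 43 of the 60664 genes counted: 12 SR genes, 2 Tra2 genes, 27 hnRNP genes and 2 PTB genes. A further 125 genes had a fitting symbol but no protein-coding annotation, among them the processed pseudogenes, and were left out. The members include HNRNPUL2-BSCL2, a read-through of HNRNPUL2 into the next gene, and HNRNPA1L3, named HNRNPA1P48 in GENCODE release 29.

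RNA came from D283 Med, a medulloblastoma line of Group 3 with amplified MYC, in 2 groups of 3 libraries. KD cells were transfected with an LNA GapmeR against the long non-coding RNA lncMB3, and SCR cells with a GapmeR labelled as scrambled. GapmeRs are antisense oligonucleotides that recruit RNase H to a transcript. PolyA+ RNA was sequenced. Both groups are the same line, and all cells were transfected. The level of lncMB3 itself was not analysed here, and its loss cannot be told apart from other effects of that GapmeR. Whether the 3 libraries of each group are separate cultures is not in the labels, and the p-values therefore reflect library-to-library spread that may be technical only. With bulk RNA, a change in RNA per cell and a change in the share of cells cannot be told apart.

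Total counts were 7765826 to 19989654 in KD and 17072573 to 20035834 in SCR, with KD library 1 the shallowest. The line's markers MYC, OTX2, CRX, NEUROD1, NRL and IMPG2 were all detected, and 0 of these 6 were higher and 5 lower in KD. Their median log2 change, KD over SCR, was -0.52. Over all tested genes 15.9% were higher and 15.9% lower. Of 13 markers of other cell types, 4 passed the low-count filter, with 0 higher and 1 lower (COL1A1). CDH5 and MBP, markers of endothelial cells and oligodendrocytes, were at 0 in every library. Their part in the results was not tested.

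Counts were compared with edgeR's quasi-likelihood test over 14673 genes. Called means an adjusted p (Benjamini-Hochberg) under 0.05, and log2 changes are KD over SCR with their SE. Levels are CPM, counts scaled to a common library size by TMM factors.

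The tested members mostly lay above SCR in KD by small amounts, with 35 positive and 4 negative log2 changes. Over all tested genes these numbered 7344 and 7329. Of the 43 members 39 passed the low-count filter, and of these 21 were higher and 0 were lower, where 31.7% of all tested genes were called, 15.9% as higher and 15.9% as lower. Called members thus made up 53.8% of those tested. SR genes gave 9 rises among 12, Tra2 genes 2 of 2, hnRNP genes 9 of 23 and PTB genes 1 of 2. The median log2 change was 0.25 over the members, 0.37 over SR genes and 0.14 over hnRNP genes, against 0.00028 over all tested genes. In 26 members every KD library was above every SCR library, which held for 22.9% of all tested genes. In 1 member, HNRNPA1L3, every KD library was below every SCR library, and 23.1% of all tested genes had that pattern. Groups did not overlap in either direction for 46% of all tested genes. Most members are abundant genes. Among the 1954 genes with a mean of at least 100 CPM, 27.4% were higher and 12.8% lower, and 18 of the 31 members among them were higher.

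The count of 21 higher members was smaller when some single libraries were left out, as was the share of all tested genes that were higher. It was 12 without KD library 1, 11 without SCR library 2 and 12 without SCR library 3, settings under which 12.2%, 8.54% and 9.46% of all tested genes were higher. With upper-quartile scaling, which moved the median of all genes to -0.06, it was 16, where 12.1% of all tested genes were higher. None of the called members turned negative under any of the 14 refits, and 10 of the 21 kept their call in each: SRSF1, SRSF2, SRSF3, SRSF4, SRSF6, SRSF7, SRSF11, TRA2B, HNRNPAB and HNRNPH1.

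**Figure D1:**
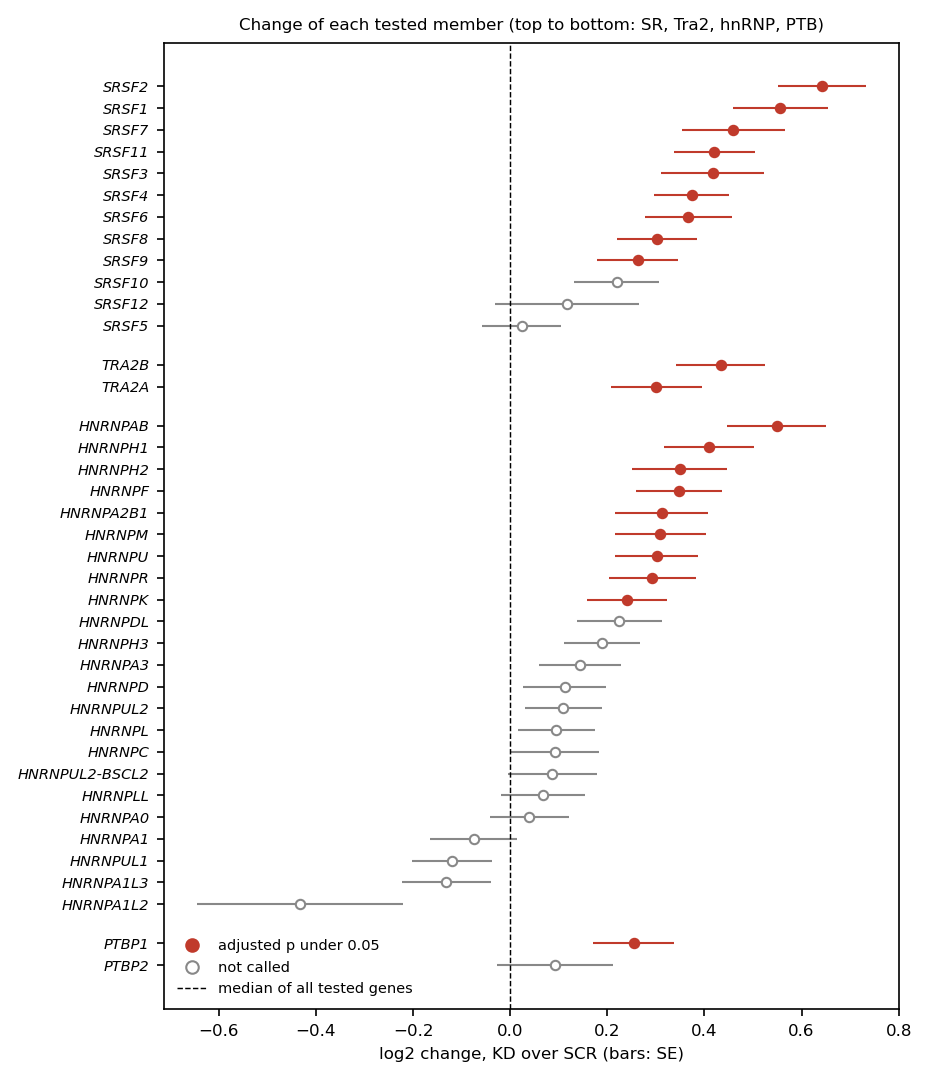
Log2 change (KD over SCR, horizontal axis) of each of the 39 tested members, in blocks from top to bottom for SR, Tra2, hnRNP and PTB genes. Bars are SE, filled red points are called and open grey points are not. All 21 called members lie to the right of 0, and 4 hnRNP members that were not called lie to the left of it.

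Both of the largest changes were in SR genes. SRSF2, a nuclear speckle protein that binds exonic enhancers (GENCODE, GRCh38, chromosome 17, 76734115 to 76737374), had 441, 423 and 451 CPM in KD libraries 1 to 3, against 315, 268 and 260.0 CPM in SCR libraries 1 to 3. The groups did not overlap, and SRSF2 was 1.56-fold higher in KD (log2 change 0.64 ± 0.09, adjusted p = 2.50e-04). SRSF1, the founding SR protein and a proto-oncogene (chromosome 17, 58003360 to 58007346), had 624, 577 and 676 CPM in KD libraries 1 to 3, against 480.3, 409 and 387 CPM in SCR libraries 1 to 3. Its lowest KD library was also above its highest SCR library (log2 change 0.56 ± 0.10, adjusted p = 0.00103). SRSF1 overlaps the read-through gene AC015813.2, with which it shares 48.2% of its 75-base stretches. Adding the read-through counts to SRSF1 left a log2 change of 0.52 (adjusted p = 0.00124).

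SRSF7, an SR protein with a zinc knuckle that also serves mRNA export, had 219.8, 249.9 and 222 CPM in KD libraries 1 to 3, against 189, 174 and 140.1 CPM in SCR libraries 1 to 3. SRSF3, the smallest SR protein and likewise an export adaptor, had 507, 586 and 543 CPM in KD libraries 1 to 3, against 475, 399 and 352 CPM in SCR libraries 1 to 3. In both genes SCR library 1 was the SCR library nearest to KD, and their log2 changes were 0.46 ± 0.11 (adjusted p = 0.00498) for SRSF7 and 0.42 ± 0.11 (adjusted p = 0.00901) for SRSF3. SRSF11, an SR-related protein of the spliceosome, had 171, 152 and 173 CPM in KD libraries 1 to 3, against 127, 124 and 119.8 CPM in SCR libraries 1 to 3. Its groups were well apart (log2 change 0.42 ± 0.08, adjusted p = 0.00198).

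SRSF4 and SRSF6 are long-tailed SR proteins of one subfamily with SRSF5. SRSF4 had 136, 133 and 130.3 CPM in KD libraries 1 to 3, against 106, 101 and 101 CPM in SCR libraries 1 to 3, with no overlap (log2 change 0.37 ± 0.08, adjusted p = 0.00275). SRSF6 had 260.4, 266 and 282 CPM in KD libraries 1 to 3, against 232, 206 and 189.6 CPM in SCR libraries 1 to 3, again with no overlap (log2 change 0.37 ± 0.09, adjusted p = 0.00727). SRSF5, their close relative, did not follow them. It had 252, 263 and 237 CPM in KD libraries 1 to 3, against 245, 258 and 236 CPM in SCR libraries 1 to 3, so that the groups overlapped, and its log2 change was 0.02 (adjusted p = 0.853) with an interval of 2 SE from -0.14 to 0.19. The difference between SRSF5 and the other SR genes was not tested.

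The smaller SR changes were less firm. SRSF8, a gene of the human genome that arose from an SRSF2 transcript, had 58.5, 54.4 and 55.9 CPM in KD libraries 1 to 3, against 47.2, 44.3 and 45.2 CPM in SCR libraries 1 to 3 (log2 change 0.30 ± 0.08, adjusted p = 0.0124), and its call was lost without KD library 1 (adjusted p = 0.0535) or SCR library 2 (adjusted p = 0.0747). SRSF9 had 152, 163 and 142 CPM in KD libraries 1 to 3, against 132, 126 and 123 CPM in SCR libraries 1 to 3 (log2 change 0.26 ± 0.08, adjusted p = 0.0267). The call of SRSF9 was lost without KD library 1 (adjusted p = 0.0719), KD library 2 (0.0654), SCR library 2 (0.110) or SCR library 3 (0.0965), with scaling to upper quartiles (0.0710) and without the low-count filter (0.0516). KD was above SCR in every library of both genes. SRSF10, a repressor of splicing in its dephosphorylated form, was not called (log2 change 0.22 ± 0.09, adjusted p = 0.0681), though its KD libraries were all above its SCR libraries, and it passed without KD library 2 (adjusted p = 0.0413). SRSF12, a relative of SRSF10, was at 6.26 to 8.38 CPM in all 6 libraries and was not called (log2 change 0.12 ± 0.15, adjusted p = 0.581).

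TRA2A and TRA2B bind GAA-rich enhancers and work beside SR proteins. TRA2B had 319.9, 335 and 332 CPM in KD libraries 1 to 3, against 276, 233 and 222 CPM in SCR libraries 1 to 3. The groups were apart (log2 change 0.43 ± 0.09, adjusted p = 0.00315). TRA2A, the scarcer paralog, had 43.2, 46.0 and 40.7 CPM in KD libraries 1 to 3, against 35.9, 37.5 and 32.0 CPM in SCR libraries 1 to 3 (log2 change 0.30 ± 0.09, adjusted p = 0.0242). The call of TRA2A was lost without KD library 1 (adjusted p = 0.0584), KD library 2 (0.0728) or SCR library 3 (0.114), and with upper-quartile scaling (0.0598).

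**Figure D2:**
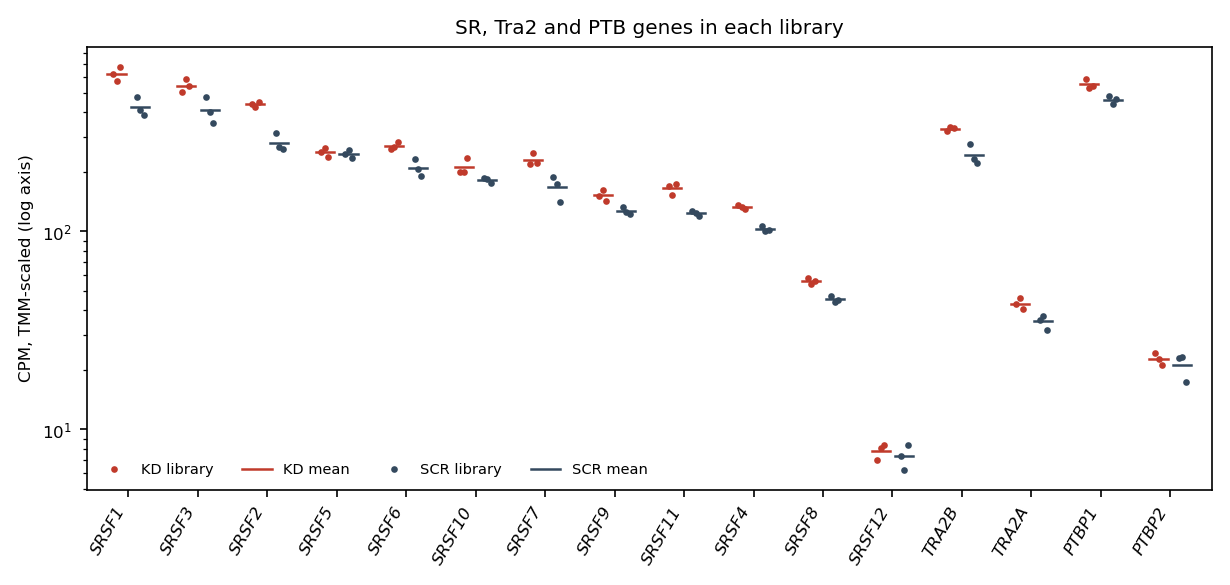
CPM on TMM-scaled library sizes (vertical log axis) of the 12 SR, 2 Tra2 and 2 PTB genes, with 1 point per library and a line for the group mean, KD left of SCR. The red KD points of SRSF1 and SRSF2 lie clear of the SCR points, while those of SRSF5, SRSF12 and PTBP2 overlap them.

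Summed over the 12 SR genes, the level was 3027, 3077 and 3156 CPM in KD libraries 1 to 3, against 2543, 2298 and 2138 CPM in SCR libraries 1 to 3. The KD sum was 1.33-fold the SCR sum, and SCR library 1 was the SCR library nearest to KD. The 27 hnRNP genes summed to 14574, 14817 and 14139 CPM in KD libraries 1 to 3, against 13802, 13192 and 12534 CPM in SCR libraries 1 to 3. The log2 ratio of these sums was 0.14, against 0.41 for SR genes, and with upper-quartile scaling these ratios were 0.082 for hnRNP and 0.35 for SR genes.

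Among hnRNP genes, 9 of 23 tested were higher and 0 were lower. HNRNPAB, a relative of HNRNPD that binds both RNA and single-stranded DNA (chromosome 5, 178204507 to 178211163), had 331, 336 and 323 CPM in KD libraries 1 to 3, against 266, 209 and 201 CPM in SCR libraries 1 to 3. It had the largest hnRNP change, 1.46-fold (log2 change 0.55 ± 0.10, adjusted p = 0.00134).

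HNRNPH1, HNRNPH2, HNRNPF and HNRNPH3 form the subfamily that binds runs of guanines. HNRNPH1 had 471, 457 and 506 CPM in KD libraries 1 to 3, against 392, 368 and 320.5 CPM in SCR libraries 1 to 3 (log2 change 0.41 ± 0.09, adjusted p = 0.00434). HNRNPF had 522, 500.2 and 513 CPM in KD libraries 1 to 3, against 447, 386 and 372 CPM in SCR libraries 1 to 3 (log2 change 0.35 ± 0.09, adjusted p = 0.00896). HNRNPH2 had 105, 106 and 108 CPM in KD libraries 1 to 3, against 96.2, 81.3 and 73.2 CPM in SCR libraries 1 to 3 (log2 change 0.35 ± 0.10, adjusted p = 0.0144). In all 3 the KD libraries were above the SCR libraries, and SCR library 1 was the highest of the SCR libraries. HNRNPF was not called without SCR library 2 (adjusted p = 0.0597). HNRNPH2 was not called without KD library 3 (adjusted p = 0.0582), SCR library 2 (0.0714) or SCR library 3 (0.0775), nor when the counts of its read-through with RPL36A were added to it (0.0721). HNRNPH3 also had no overlap between groups but was not called (log2 change 0.19 ± 0.08, adjusted p = 0.0779).

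The abundant HNRNPU, HNRNPA2B1 and HNRNPK rose by less. HNRNPU, a scaffold protein of chromatin and RNA, had 1510.3, 1437 and 1477 CPM in KD libraries 1 to 3, against 1270.2, 1168 and 1151 CPM in SCR libraries 1 to 3 (log2 change 0.30 ± 0.09, adjusted p = 0.0151). HNRNPA2B1, a splicing repressor that also sorts RNAs for transport, had 1067, 1089 and 996 CPM in KD libraries 1 to 3, against 939.7, 846 and 753 CPM in SCR libraries 1 to 3 (log2 change 0.31 ± 0.10, adjusted p = 0.0224). HNRNPK, which binds cytosine-rich RNA through KH domains, had 1022, 1006 and 995 CPM in KD libraries 1 to 3, against 901, 836 and 820.5 CPM in SCR libraries 1 to 3 (log2 change 0.24 ± 0.08, adjusted p = 0.0379). Groups were apart in all 3, yet each call was lost when any 1 of several libraries was left out. Each such refit has 1 library fewer. Over all tested genes 2704 to 3678 were called in these refits, against 4657 in the full data. Without KD library 1 the adjusted p was 0.0593 for HNRNPU, 0.0689 for HNRNPA2B1 and 0.110 for HNRNPK. Without SCR library 2 it was 0.0845, 0.0849 and 0.154, and without SCR library 3 it was 0.0641, 0.115 and 0.133, in the same order. Without KD library 3 it was 0.0554 for HNRNPU and 0.0957 for HNRNPK. HNRNPK was also lost when scaled to upper quartiles (0.0963), without the low-count filter (0.0743) and under the replicate block (0.0658).

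HNRNPM, which binds GU-rich RNA, had 584, 514 and 485 CPM in KD libraries 1 to 3, against 462, 416 and 397 CPM in SCR libraries 1 to 3 (log2 change 0.31 ± 0.09, adjusted p = 0.0218). HNRNPR, a close relative of SYNCRIP, had 402, 365 and 389 CPM in KD libraries 1 to 3, against 341, 319.8 and 282 CPM in SCR libraries 1 to 3 (log2 change 0.29 ± 0.09, adjusted p = 0.0227). Both rose in the full data and neither was firm. HNRNPM was lost without KD library 1 (adjusted p = 0.119), SCR library 2 (0.0952) or SCR library 3 (0.0931). HNRNPR was lost without KD library 1 (0.0891), KD library 3 (0.0810), SCR library 2 (0.0741) or SCR library 3 (0.117), and with upper-quartile scaling (0.0504). HNRNPDL, a relative of HNRNPD, had 467, 497 and 468 CPM in KD libraries 1 to 3, against 442, 411 and 372 CPM in SCR libraries 1 to 3, with no overlap but no call (log2 change 0.23 ± 0.09, adjusted p = 0.0616). It passed with DESeq2 (adjusted p = 0.0341) and without SCR library 1 (0.0235).

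**Figure D3:**
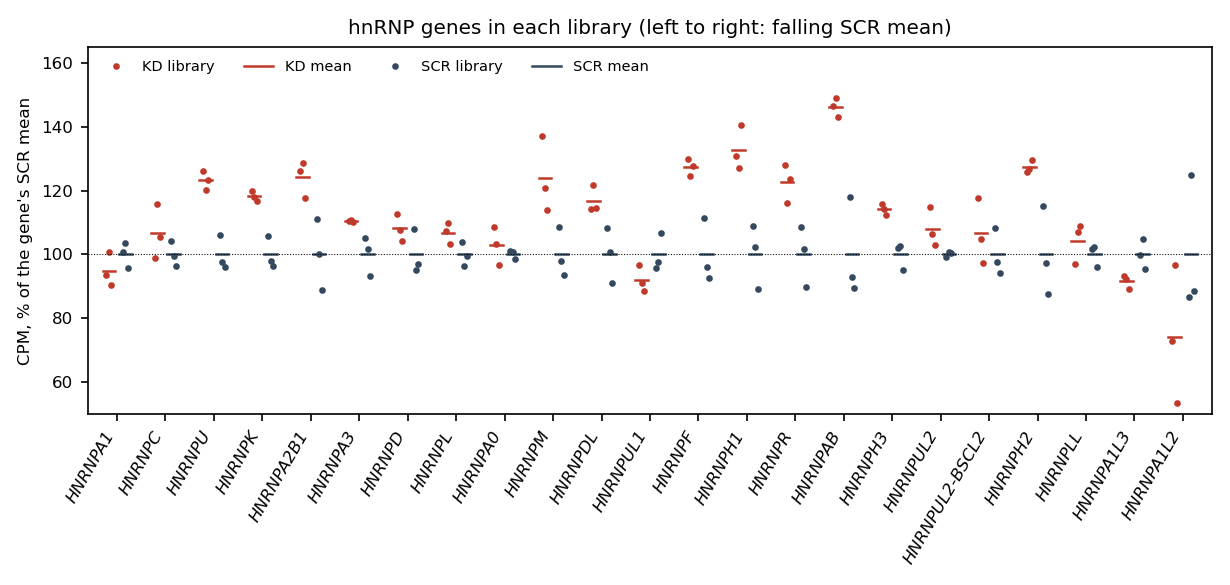
Level of each of the 23 tested hnRNP genes in each library as a percent of that gene's SCR mean (vertical axis), ordered by SCR mean from left to right, KD left of SCR. Points are libraries and lines are group means. HNRNPAB reaches 149% in KD, while KD and SCR points are mixed for HNRNPA1 and HNRNPC.

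The most abundant hnRNP genes were not called. On the length-scaled RPKM scale, which allows genes to be compared, HNRNPA1 was highest at 1951 RPKM in KD and 2055 in SCR, followed by HNRNPC at 987 RPKM in KD and 926 in SCR and HNRNPA3 at 402 RPKM in KD and 364 in SCR. Among SR genes SRSF1 was highest in both groups, at 442 RPKM in KD and 301 in SCR. Behind it SRSF2 was at 227 RPKM in KD and 146 in SCR, SRSF3 at 214 RPKM in KD and 161 in SCR and SRSF5 at 177 RPKM in KD and 175 in SCR, so that SRSF2 came second in KD and SRSF5 second in SCR. HNRNPA1, a repressor that binds UAGGG-like silencers, had 3255, 3503 and 3137 CPM in KD libraries 1 to 3, against 3499.8, 3599 and 3325 CPM in SCR libraries 1 to 3, with overlapping groups (log2 change -0.08 ± 0.09, adjusted p = 0.557, interval of 2 SE from -0.26 to 0.11). Its share of all hnRNP CPM was 22.3%, 23.6% and 22.2% in KD libraries 1 to 3, against 25.4%, 27.3% and 26.5% in SCR libraries 1 to 3. Without HNRNPA1, a choice made after its values were seen, the other hnRNP genes summed to 1.16-fold their SCR level in KD. HNRNPC, which packages nascent transcripts and binds uridine tracts, had 1462, 1713 and 1559 CPM in KD libraries 1 to 3, against 1545, 1471 and 1426 CPM in SCR libraries 1 to 3, also overlapping (log2 change 0.09 ± 0.09, adjusted p = 0.465). HNRNPA3, a relative of HNRNPA1, had 832, 833 and 829 CPM in KD libraries 1 to 3, against 791, 766 and 701 CPM in SCR libraries 1 to 3, apart but not called (log2 change 0.14 ± 0.08, adjusted p = 0.206).

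Of the other hnRNP genes, HNRNPD, the AU-rich element binding protein AUF1, was at 0.11 ± 0.08 on the log2 scale (adjusted p = 0.333). HNRNPL, which binds CA repeats, was at 0.10 ± 0.08 (adjusted p = 0.388). HNRNPA0, HNRNPLL, HNRNPUL2 and its read-through HNRNPUL2-BSCL2 lay between 0.04 and 0.11 and were not called. HNRNPUL1, an HNRNPU-like protein, was at -0.12 (adjusted p = 0.291). The HNRNPA1-like genes HNRNPA1L3 and HNRNPA1L2 were at -0.13 and -0.43 (adjusted p = 0.293 and 0.135), and HNRNPA1L2 was called lower with no low-count filter (adjusted p = 0.0376), with the replicate block (0.0335) and without KD library 2 (0.0271). HNRNPA1L3 and HNRNPA1L2 share 41.0% and 35.1% of their 75-base stretches with HNRNPA1, so their counts are uncertain. HNRNPUL2 shares 42.8% of its stretches with HNRNPUL2-BSCL2, and the read-through shares 59.0% with HNRNPUL2, so these counts are uncertain too. The only GENCODE transcript of the read-through is marked for nonsense-mediated decay. HNRNPCL1, HNRNPCL2, HNRNPCL3 and HNRNPCL4 did not pass the filter and had at most 3 counts in any library.

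PTBP1 and PTBP2 are repressors that bind pyrimidine tracts, and neurons replace PTBP1 by PTBP2 as they differentiate. PTBP1 had 587, 528 and 545 CPM in KD libraries 1 to 3, against 484, 439.9 and 468 CPM in SCR libraries 1 to 3. It was 1.19-fold higher in KD (log2 change 0.25 ± 0.08, adjusted p = 0.0317), a call lost without KD library 1 (adjusted p = 0.137), KD library 3 (0.0824), SCR library 2 (0.165) or SCR library 3 (0.0760), with upper-quartile scaling (0.0821) and with no low-count filter (0.0553). PTBP2 had 24.2, 22.6 and 21.2 CPM in KD libraries 1 to 3, against 22.8, 23.2 and 17.3 CPM in SCR libraries 1 to 3, with overlapping groups (log2 change 0.09 ± 0.12, adjusted p = 0.590). On the RPKM scale PTBP1 was at 175 RPKM in KD and 146 in SCR and PTBP2 at 7.42 RPKM in KD and 6.91 in SCR.

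The counts are per gene and do not separate a productive transcript from one with a poison exon. GENCODE lists at least 1 transcript marked for nonsense-mediated decay in all 12 SR genes, both Tra2 genes, 14 of 27 hnRNP genes and 1 of 2 PTB genes. Among tested members that was 29 of 39 (74.4%), against 5472 of 12716 tested protein-coding genes (43.0%). Shared sequence limits fewer of them: 12 of 43 members have over 10% of their 75-base stretches in a transcript of another gene, and of the called members these are SRSF1 and HNRNPH2. The spans of genes on the opposite strand overlap several members, among them MFSD11 at SRSF2, PHYKPL at HNRNPAB, GATC at SRSF9, COX20 at HNRNPU and CBX3 at HNRNPA2B1. Overlap of their exons was not measured. Reads from any stretch that is exonic in both genes can be told apart only if strand was used in counting. Pseudogenes of HNRNPA1 held 1.68% to 1.74% of the joint counts of HNRNPA1 and these pseudogenes in KD and 1.75% to 1.94% in SCR.

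Promoters were searched for the E-box CACGTG, the site bound by MYC and its partner MAX, which reads the same on both strands. RefSeq promoter windows (GRCh38.p14, 250 bases before to 50 after a start) were found for 38 of the 43 members, 53 windows in all; those not covered are SRSF2, TRA2A, HNRNPA1, HNRNPA1L3 and HNRNPCL3. The E-box lay in 8 of the 53 windows (15.1%), against 7.26% of all 35116 windows. For called members it was in 2 of 28 windows (7.14%), near that share, and for members tested and not called in 6 of 22 (27.3%). By gene it was present in 2 of the 19 called members with a window, HNRNPM and HNRNPH2, and in 5 of the 16 that were tested and not called. None of the windows of the other 11 SR genes, TRA2B, PTBP1 and PTBP2 held it. On either strand, CCAAT lay in 26 of the 53 windows (49.1%, against 34.6% of all windows), CCGGAAG in 6 (11.3%, against 10.3%) and the palindromic core of the NRF1 site in 0, where 1.24% of all windows held it. These motifs did not overlap each other in any of the 53 windows. The 150 bases before the start are shown for both called genes with an E-box, for HNRNPA3 as a gene with an E-box that was not called, and for SRSF1 as a called gene without one, each 5′ to 3′ with the E-box in capitals.
HNRNPM (chr19:8444825-8444974, plus strand): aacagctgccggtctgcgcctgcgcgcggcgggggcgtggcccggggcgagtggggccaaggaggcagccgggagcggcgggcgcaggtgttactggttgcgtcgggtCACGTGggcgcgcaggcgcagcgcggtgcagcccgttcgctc
HNRNPH2 (chrX:101408072-101408221, plus strand): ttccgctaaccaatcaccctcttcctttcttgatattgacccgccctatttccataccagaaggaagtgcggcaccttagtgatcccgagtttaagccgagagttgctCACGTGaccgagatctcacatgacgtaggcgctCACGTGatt
HNRNPA3 (chr2:177212644-177212793, plus strand): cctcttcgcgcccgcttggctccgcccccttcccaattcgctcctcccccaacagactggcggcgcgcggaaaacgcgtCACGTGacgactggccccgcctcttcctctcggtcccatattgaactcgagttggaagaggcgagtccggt
SRSF1 (chr17:58007247-58007396, minus strand): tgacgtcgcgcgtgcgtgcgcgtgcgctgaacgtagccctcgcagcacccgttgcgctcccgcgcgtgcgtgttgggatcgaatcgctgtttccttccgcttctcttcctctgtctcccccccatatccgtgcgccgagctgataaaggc
HNRNPH2 holds the E-box at 2 places, HNRNPM and HNRNPA3 at 1. MYC mRNA itself was at 1203 ± 74.8 CPM in KD and 1177 ± 90.5 CPM in SCR (SD, n = 3 each) and was not called (adjusted p = 0.826).

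Genes of the wider splicing machinery were read beside the members. Core spliceosome genes were mostly higher in KD. The share higher was 66.7% for U2, 65.2% for tri-snRNP, 70% for U1 and 75% for Sm genes. Of all tested genes 15.9% were higher, and of those with a mean of at least 100 CPM 27.4%. Of 18 genes of the U2 snRNP and of 3′ splice site recognition 12 were higher and 0 lower (median log2 change 0.35), led by U2AF2, which binds the pyrimidine tract (log2 change 0.48 ± 0.09, adjusted p = 0.00107), and DDX46, a helicase of U2 (log2 change 0.57 ± 0.10, adjusted p = 0.00117). Of 23 tri-snRNP genes 15 were higher and 0 lower (median 0.30), led by PRPF3 (log2 change 0.48 ± 0.08, adjusted p = 7.60e-04). Of 10 genes of the U1 snRNP and its partners 7 were higher, among them LUC7L, a U1-associated protein (log2 change 0.46 ± 0.09, adjusted p = 0.00198), and 1, PRPF40B, was lower (log2 change -0.36 ± 0.11, adjusted p = 0.0226). Of 8 Sm core genes 6 were higher, led by SNRPG (log2 change 0.58 ± 0.11, adjusted p = 0.00161), and 1, SNRPN, was lower (log2 change -0.26 ± 0.08, adjusted p = 0.0267). PRPF40B and SNRPN were named after their values were seen. These counts too were smaller without SCR library 2 or SCR library 3. Without SCR library 2 the genes higher numbered 6 for U2, 5 for the tri-snRNP, 2 for U1 and 2 for Sm, and without SCR library 3 they numbered 7, 6, 4 and 3 in the same order. Of all tested genes 8.54% and 9.46% were higher in these settings. For U1 genes the number was also 3 without KD library 1, 4 without KD library 3 and 4 with upper-quartile scaling. In these settings 12.2%, 10.8% and 12.1% of all tested genes were higher. The fall of SNRPN was lost without KD library 1, KD library 3, SCR library 2 or SCR library 3, and that of PRPF40B without KD library 3, SCR library 2 or SCR library 3.

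Other splicing regulators moved both ways. Of 49 tested 12 were higher and 10 lower, with a median log2 change of -0.01. Called genes made up 44.9% of that list, against 31.7% of all tested genes and 40.2% of those with a mean of at least 100 CPM. The share higher was 24.5%, against 15.9% and 27.4% in the same order. The 10 falls stand beside 15.9% lower of all tested genes and 12.8% lower of the abundant ones. The smallest adjusted p-values in that list belonged to falls. SRRM4, which drives the inclusion of neuronal microexons, had 8.19, 9.60 and 7.71 CPM in KD libraries 1 to 3, against 15.7, 16.6 and 20.2 CPM in SCR libraries 1 to 3, 2.05-fold lower in KD (log2 change -1.03 ± 0.14, adjusted p = 1.69e-04). RBFOX2, which binds GCAUG, had 169, 157 and 166 CPM in KD libraries 1 to 3, against 219.5, 251 and 260.0 CPM in SCR libraries 1 to 3 (log2 change -0.57 ± 0.09, adjusted p = 4.28e-04). CELF3 and CELF6, of the CELF family of GU-rich element binders, fell to 4.85 and 7.43 CPM in KD, against 9.53 and 15.0 CPM in SCR (log2 change -0.96 and -0.98, adjusted p = 6.00e-04 and 8.96e-04). The KD libraries lay below the SCR libraries in all 4 genes. The 12 rises numbered 7 without SCR library 2, where 8.54% of all tested genes were higher.

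Genes that act on SR and hnRNP proteins or on their transcripts were counted in 3 further lists. The share higher was 11.1% for SR kinases and the importer, 40% for arginine methylation and 30% for nonsense-mediated decay. It was 15.9% over all tested genes and 27.4% over those with a mean of at least 100 CPM. The shares for kinases and decay factors were thus near or below these backgrounds. Of 9 tested genes for SR kinases and the SR importer, 1 was higher and 0 lower. The gene that was higher was PRPF4B, a kinase of the spliceosome (log2 change 0.35 ± 0.09, adjusted p = 0.00929), and its call was lost without KD library 3 (adjusted p = 0.0644). The count was 2 in some refits, which added SRPK1 without SCR library 1 (adjusted p = 0.0355) and CLK4 without SCR library 2 (0.0437), under the replicate block (0.0459) and without the low-count filter (0.0428). With upper-quartile scaling SRPK2, another SR kinase, was lower (log2 change -0.26, adjusted p = 0.0390). CLK1, which phosphorylates SR proteins, was at 0.28 ± 0.11 (adjusted p = 0.0780), and SRPK1 at 0.19 ± 0.08 (adjusted p = 0.0946). Of 10 tested genes of arginine methylation 4 were higher and 0 lower, led by WDR77 (log2 change 0.62 ± 0.11, adjusted p = 8.31e-04) and PRMT5 (log2 change 0.50 ± 0.09, adjusted p = 0.00110), which together methylate Sm proteins. Of 10 nonsense-mediated decay factors 3 were higher, led by SMG8, a regulator of the SMG1 kinase (log2 change 0.53 ± 0.10, adjusted p = 0.00109), and 1, SMG6, was lower (log2 change -0.30 ± 0.11, adjusted p = 0.0428). The fall of SMG6 was lost without any of KD libraries 1 to 3 or SCR libraries 2 and 3 (adjusted p from 0.0506 to 0.196), and with DESeq2 (0.0808) and limma-voom (0.0512). The decay factors that were higher numbered 1 without KD library 1 or SCR library 2 and 5 without KD library 2. Of all tested genes 12.2%, 8.54% and 14.6% were higher in these settings.

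**Figure D4:**
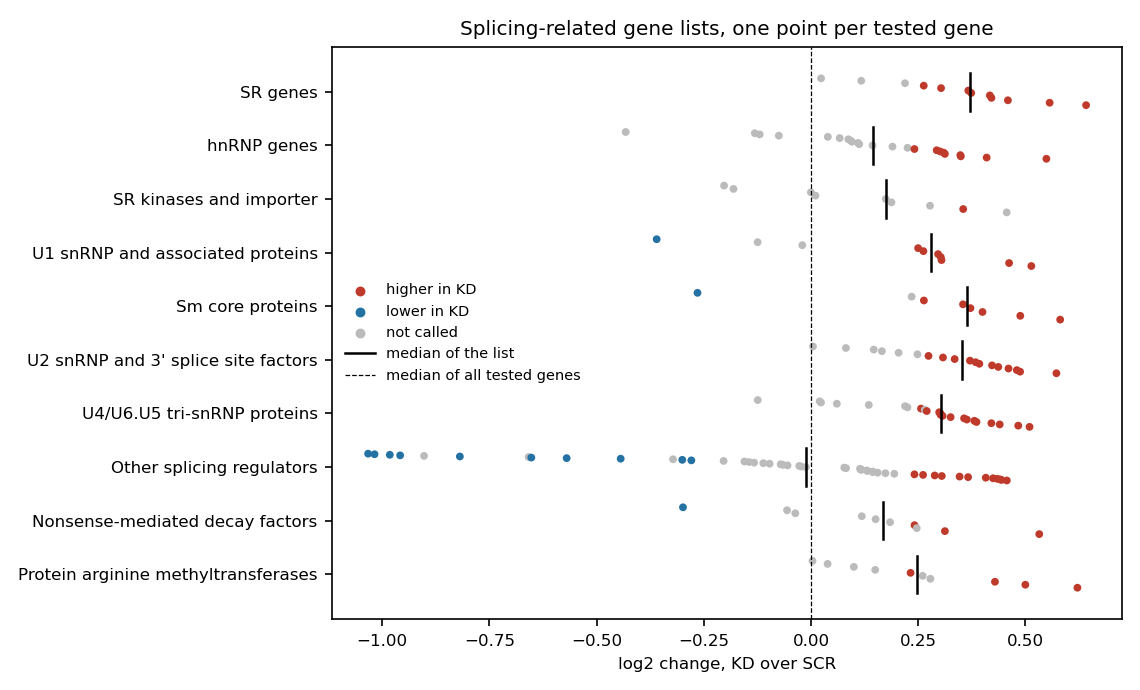
Log2 change (KD over SCR, horizontal axis) of each tested gene in the SR and hnRNP classes and in 8 lists of splicing-related genes, with red for higher, blue for lower and grey for not called. Black ticks are list medians. The snRNP lists lie mostly to the right of 0, and other splicing regulators spread to both sides, with SRRM4 at -1.03.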

How the data were processed

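PolyA+ RNA-seq counts of 3 KD and 3 SCR libraries of D283 Med cells were used, with groups and replicate numbers from the labels. Trim Galore 0.6.4, STAR 2.7.9a, RSEM and the build GRCh38.p13 are named in the submitters' processing notes. For annotation, RSEM version and use of strand: not given in the sources used here. Reads of overlapping genes may therefore be mixed. The authors deposited whole-number counts per gene for 60708 rows, read here as rounded RSEM estimates. RSEM shares reads among similar genes.

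The 44 chromosome Y pseudoautosomal rows were added to their X copies. Symbols, biotypes, coordinates and transcript lengths are from GENCODE release 29 (GRCh38) and a table of current symbols. RPKM is mean CPM per kilobase of the median protein-coding transcript. The test was edgeR 4.0.16 in R 4.3.3: filterByExpr, TMM, glmQLFit and glmQLFTest with no covariate, 2-sided, adjusted over 14673 genes. SE is the log2 change over the square root of F. CPM uses TMM-scaled sizes, and the biological coefficient of variation was 8.91%. On simulated counts of 14673 genes the test found 66 of 100 genes changed 1.5-fold and 87 of 100 changed 2-fold, with 5 false calls among 158. Only these genes were changed in the simulation, with the same dispersion for every gene, while 4657 genes were called in the data. The shares found there therefore do not give the sensitivity in the data. No pair of libraries within KD or SCR agreed within counting noise (chi-square over degrees of freedom 2.73 to 16.5), and each counted as 1 replicate. Shared stretches are 75-base words of GENCODE transcripts. Read length: not given in the sources used here.

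The members and lists were chosen with earlier results of these data known. Text names all Tra2 and PTB genes, called SR and hnRNP genes (values per library for the 6 and 10 smallest adjusted p-values), the 3 highest by length-scaled level, and up to 4 genes per list by adjusted p. Values per library were also given for the genes highest by length-scaled level and, outside the rule and after their values were seen, for SRSF5, SRSF8 and SRSF9. SRPK2, PRPF40B and SNRPN were likewise named after their values were seen. Alternatives were RLE and upper-quartile scaling, no filter, 1 CPM in 3 libraries, DESeq2 1.42.0, limma-voom (limma 3.58.1), a replicate block, each library left out and a threshold of 0.01. Adding read-through counts, and leaving HNRNPA1 out of a sum, were chosen after seeing the data. Values of some listed genes are not reported here. Plots used matplotlib 3.10.9.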

Additional observations from a re-analysis of the deposited data

How the results depend on the processing

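Leaving out 1 library at a time gave 11 to 22 members higher and 0 to 1 lower, with a median member change of 0.23 to 0.29, while all genes called ran from 2704 to 5114 (1264 to 2604 higher, 1440 to 2510 lower). At an adjusted p under 0.01, 2459 genes passed (1190 higher, 1269 lower) and 11 members were higher. Upper-quartile scaling gave a median member change of 0.20 and log2 ratios of summed CPM of 0.35 for SR and 0.082 for hnRNP genes, in place of 0.41 and 0.14. With TMM scaling the hnRNP ratio without HNRNPA1 was 0.21. With no low-count filter 18 members were higher and 1 was lower, where 8.94% of the 26279 genes tested were higher. Replicate numbers did not pair the libraries (correlations of same-numbered deviations -0.03 to 0.10), and with the replicate block 20 members were higher and 1 lower. Under that block 16.1% of all tested genes were higher. RLE scaling, DESeq2, limma-voom and a filter of 1 CPM in 3 libraries gave 21 to 22 members higher and 0 lower. With them 15% to 16.1% of all tested genes were higher. Over 14 refits the direction reversed for 0 called members, 45 member calls were lost and 6 gained. For changes with single libraries, the cause was not tested. KD library 1, with 7765826 counts, limits the precision of scarce members such as SRSF12 and HNRNPA1L2, and the groups of 3 allow no exact permutation p below 0.1.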
